A study of Homo sapiens with 9 samples.

Results

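The genes described here are those of the human potassium channels, taken as every gene whose symbol starts with KCN and that has at least 1 gene probe on the array listed under a curated RefSeq messenger RNA. The rule found 93 genes with 111 probes, of 18137 genes represented by such probes in all. The rule itself used no measured value, but it was chosen with earlier results of these data known. RNA came from A2780, a long-established cell line from a human ovarian carcinoma, in 3 groups of 3 arrays: untreated cells, cells given 8 nM DIG-MSK for 24 h and cells given 80 nM DIG-MSK for 24 h. All 9 samples share the line, the medium and the labeling with a single dye, and the methods call the samples of a group biological replicates. DIG-MSK is an analogue of mithramycin A, an antibiotic that binds C/G-rich DNA, where the transcription factor Sp1 has its GC boxes. The cells are of a single line, so that the replicates do not vary in genotype.

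Potassium channels let potassium ions leave or enter the cell along their gradient and thereby set the membrane potential. Voltage-gated pores open on depolarization, inward rectifiers pass current best near rest, two-pore channels carry background current, and calcium-activated channels tie the potential to intracellular calcium. Auxiliary subunits change the gating or the surface density of a pore without conducting themselves. In cancer cells several of these channels, among them the large-conductance calcium-activated channel encoded by KCNMA1 and the hERG channel encoded by KCNH2, are known for their links with proliferation and volume control.

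A level is given throughout as the log2 of the background-corrected intensity of a probe minus the log2 of the 75th percentile of its array, so that 0 is that percentile and levels of different probes are not set against each other. Groups were compared with limma. A gene was called if its unadjusted p was under 0.05 and its change reached 1.5-fold upward or went down to 0.67-fold. Adjusted p-values are those of limma with Benjamini-Hochberg correction over all 21813 genes tested. Between 24800 and 27123 probes per array were well above background, and the 8 nM replicate 2 array had the fewest. The untreated and 8 nM arrays were on slide 1 and the 80 nM arrays on slide 2, scanned separately, so that slide and 80 nM treatment cannot be told apart. Of the 7 markers of an epithelial or ovarian line, KRT8, KRT18, EPCAM, CDH2 and VIM were above background on all 9 arrays, PAX8 was so on 1 array of each group and CDH1 on none. Of the 7 neuronal markers, SYP, SNAP25 and TUBB3 were above background on all 9 arrays, RBFOX3 and STMN2 on none, and MAP2 on every array except those of 80 nM. The 3 endothelial markers gave CDH5 above background on all 9 arrays and PECAM1 and VWF on none. Of the 3 blood cell markers, PTPRC and CD14 were above background on all 9 arrays. CD3E was so on 1 array of untreated cells, none of 8 nM and 2 of 80 nM. Of the 6 markers of heart or skeletal muscle, ACTN2 and DES were above background on all 9 arrays, and MYH6 and MYH7 on none. TNNT2 was so on all untreated and 8 nM arrays and on 1 of 80 nM, and MYOD1 on 1 of 80 nM alone. MAP2, TUBB3 and ELAVL3, 3 of the 5 neuronal markers tested, were called down at 80 nM, as were CDH2 and EPCAM, 2 of the 5 tested markers of the line (log2 changes -2.32 and -0.92). Over all genes tested, 16.2% were called down at 80 nM. ELAVL3 was above background on 1 untreated array, on all 3 of 8 nM and on none of 80 nM. It was tested only because all 8 nM arrays detected it, which favored a rise there. At 8 nM ELAVL3, EPCAM and TNNT2 were called up (log2 changes 1.00, 0.90 and 1.17) and PTPRC was called down (-0.73). Called up at 8 nM were 4.25% of all genes, and called down 2.84%. The summed intensity of the 5 neuronal markers, in units of the 75th percentile of the array, ranged from 1.16 to 1.19 over the untreated arrays, from 1.04 to 1.32 over those of 8 nM, and from 0.48 to 0.53 over those of 80 nM. That of the 5 tested markers of the line ranged from 183.9 to 213.3 in untreated cells and from 247.3 to 262.6 at 80 nM. At 8 nM it ranged from 168.1 to 187.9. VIM, with a log2 change of 0.41 at 80 nM, made up nearly all of this sum, which does not stand for the set. Each of these sums follows its brightest probes. For the tested muscle markers the ranges were 0.61 to 0.65 in untreated cells and 0.57 to 0.71 at 80 nM. For those of blood cells they were 0.10 to 0.15 and 0.11 to 0.14, and for CDH5 0.11 to 0.11 and 0.12 to 0.15. The part of other cell types in the values below was not tested, and fewer cells with a transcript and less of it per cell cannot be told apart in such bulk RNA.

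Most potassium channel genes were not measurable in these cells. A gene was tested when some group had a probe of it clear of the background on each of its 3 arrays, which held for 41 of the 93 genes. Of the other 52, 44 were above background on no array, among them KCNQ1, KCNK1, KCNK2, KCNK3, KCNJ11, KCNN3 and KCNMB2, and 8 were so on 1 or 2 arrays, namely KCNA3, KCNA10, KCNB2, KCNC2, KCNH7, KCNJ8, KCNK13 and KCNV2. The tested genes were 16 of 40 voltage-gated pores, 5 of 13 auxiliary subunits of these, 6 of 14 inward rectifiers, 6 of 14 two-pore channels and 8 of 12 channel or subunit genes of the calcium- and sodium-activated group. The untreated arrays all detected 34 of the 41 genes, the 8 nM arrays 30 and the 80 nM arrays 29. Of these 34, 9 were above background on no 80 nM array, or 26.5%, beside 594 of 20844 genes, or 2.85%, over the whole table. They were KCNMA1, KCNMB4, KCNN2, KCNT2, KCNJ3, KCNJ4, KCNJ13, KCNJ16 and KCNIP4. In the opposite direction, KCNH4 and KCNH6 were above background on no untreated array and on all 3 at 80 nM. The genes of the whole table were not matched to the channel genes in signal.

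At 80 nM, 26 of the 41 channel genes were called, 10 up-regulated and 16 down-regulated, and each of the 26 also had an adjusted p under 0.05, as had 34.4% of all genes with such a change. Called members were thus 63.4%, whereas 35.1% of all genes were called in this comparison (18.9% up and 16.2% down). A gene that passed the filter only through the group in which it is bright had to differ. The 21 members above background on all 9 arrays, which did not pass through a single group, gave 5 up and 5 down, or 47.6% against 31% of the 18821 genes that passed the same filter. The median size of the change over those 21 genes was 0.48 on the log2 scale beside 0.38 over those 18821 genes. The count depended on the correction of the background: with a normexp model on the raw signals it was 10 genes, 2 up and 8 down, or 24.4% beside 21.8% of all genes, and with the log2 values of the authors it was 15, 3 up and 12 down, or 36.6% beside 26.2%. The 10 genes called with normexp as well were KCNMA1, KCNN2, KCNJ2, KCNJ3, KCNJ12, KCNH2, KCNS1, KCNK5, KCND2 and KCNMB1. With the values of the authors KCNC1, KCNJ16, KCNK6, KCNMB4 and KCNT2 were called besides these, and the remaining 11 genes lost their call at 80 nM with both. At 8 nM only 4 of the 41 genes were called, 3 up and 1 down, or 9.76% against 7.09% of all genes (4.25% up and 2.84% down), and 3 of these had an adjusted p under 0.05, beside 5.11% of all genes. Of the 21 members above background everywhere, KCNN4 alone was called at 8 nM, or 4.76% against 5.66% of all genes so filtered. The 15 genes not called at 80 nM had log2 changes between -0.48 and 0.64, and the 37 not called at 8 nM between -1.06 and 0.50.

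**Figure D1:**
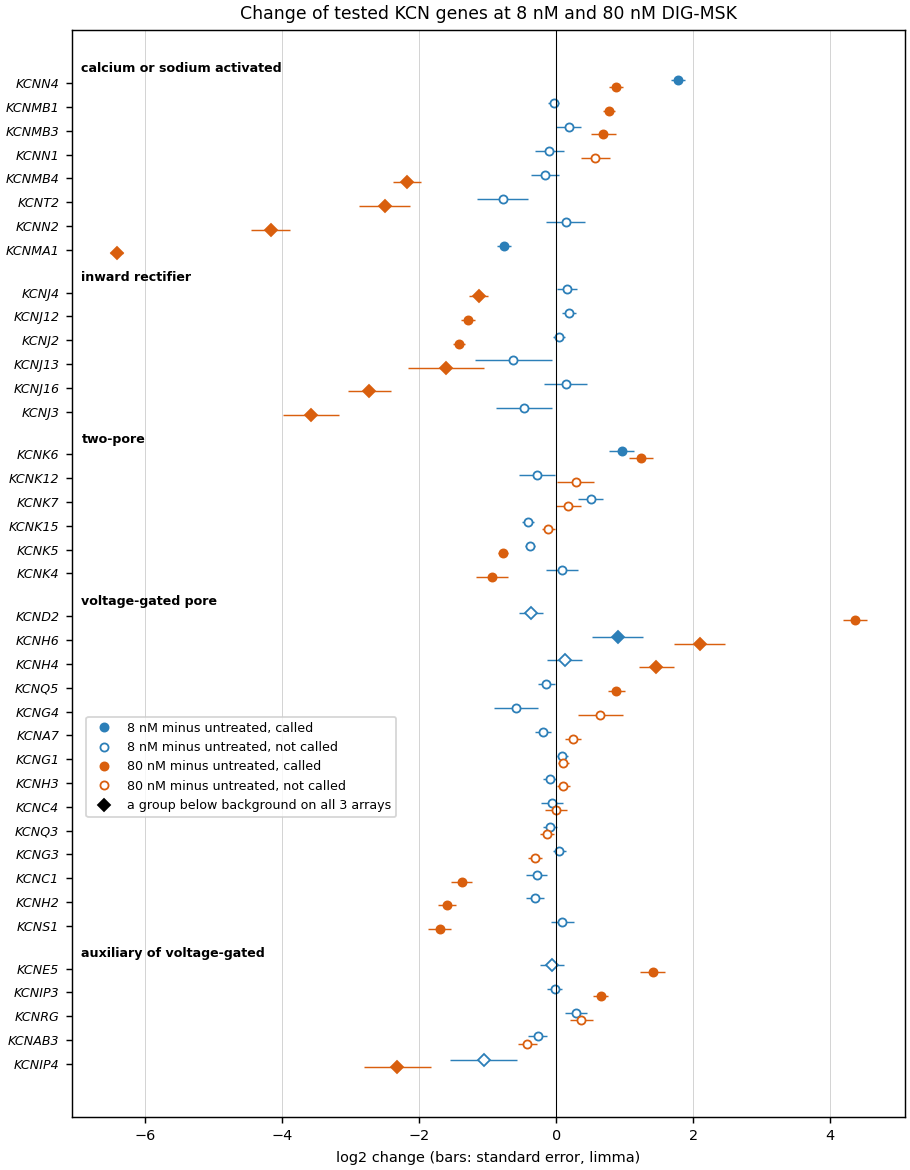
Change of 39 of the 41 tested genes at 8 nM (blue) and 80 nM (orange) against untreated cells, on the log2 scale, with bars for the standard error of the limma fit. Filled symbols are called genes, diamonds mark genes with a group below background on all 3 arrays, whose position is a fitted value and not a measured size, and the blue symbols lie mostly near 0 while the orange ones spread from -6.42 (KCNMA1) to 4.36 (KCND2).

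Among the calcium- and sodium-activated channels, KCNMA1, KCNN2, KCNMB4 and KCNT2 fell at 80 nM, and KCNN4, KCNMB1 and KCNMB3 rose. KCNMA1 (NM_002247) encodes the pore of the large-conductance calcium- and voltage-activated channel, and the study examined its Sp1 occupancy by chromatin immunoprecipitation as that of a gene repressed at the higher dose, so its fall is not independent evidence. Its levels were -1.51, -1.30 and -1.39 on the untreated arrays, -2.33, -1.99 and -2.15 at 8 nM, and -7.81, -7.79 and -7.86 at 80 nM. The 3 groups did not overlap, and no 80 nM array was above background. At 8 nM KCNMA1 fell 1.69-fold (log2 change -0.76, SE 0.10, adjusted p = 0.00249), the only potassium channel gene called down at this dose. At 80 nM only a bound can be given, at least 22.6-fold lower than in untreated cells and at least 13.3-fold lower than at 8 nM (adjusted p = 5.1e-09 and 6.57e-09), with group means of -1.40, -2.16 and -7.82. In such a bound, a probe below background takes on each array the dimmest signal that any probe had there while above background, or its own signal if that is higher.

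RefSeq lists more than 1 start of KCNMA1, and the promoter with the most GC boxes is shown, since this is the potassium channel gene whose Sp1 occupancy the study examined. The region of that assay is not what is shown: neither primer that the paper lists for it occurs in the bases printed, on either strand. The 250 bases before the start lie on the minus strand at chr10:77637809-77638058 of GRCh38.p14, 85.6% of them are G or C, and the letters GGGCGG or their reverse complement, in capitals, occur 6 times, once as an overlapping pair.
KCNMA1: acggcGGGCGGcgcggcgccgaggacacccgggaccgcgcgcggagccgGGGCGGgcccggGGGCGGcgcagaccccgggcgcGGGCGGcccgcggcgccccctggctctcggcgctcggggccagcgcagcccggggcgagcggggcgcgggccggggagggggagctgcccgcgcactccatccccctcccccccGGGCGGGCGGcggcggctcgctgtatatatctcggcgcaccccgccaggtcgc
A second RefSeq start of the gene, on chromosome 10 as well, held no such letters in its 300 bases. The arrays do not tell which start the transcripts used.

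The array carried 4 probes of KCNMA1. The 3 that were above background on every array but those of 80 nM moved the same way, with log2 changes at 8 nM of -0.76, -0.98 and -1.20 for the probe used, a second NM_002247 probe and the NM_001014797 probe. The fitted changes at 80 nM were -6.42, -5.64 and -3.36, each down to the background of its probe. The fourth probe, also of NM_002247, was above background on no array.

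**Figure D2:**
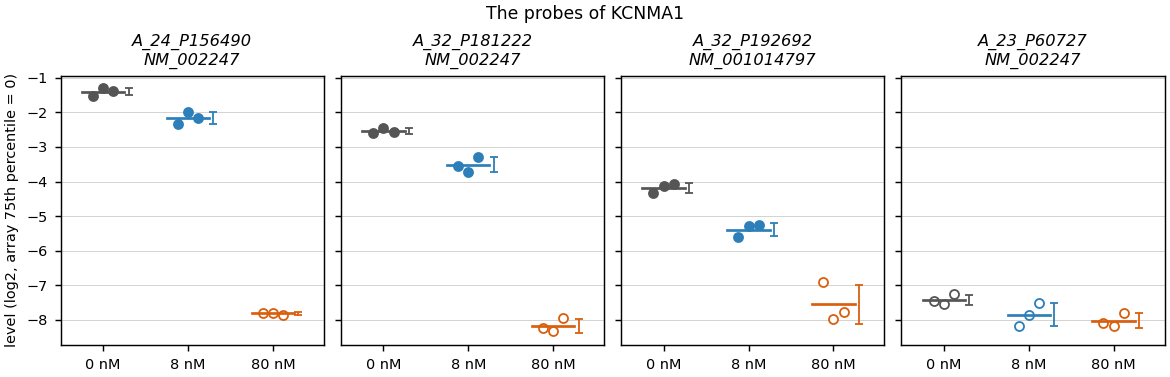
Level of the 4 KCNMA1 probes on each array (log2, with the 75th percentile of the array at 0) in untreated cells and at 8 and 80 nM, with the group mean as a line and the SD as a bar. Open circles mark groups in which no array was above background: 3 probes step down from untreated to 8 nM and reach the background at 80 nM, and the fourth stays at the background.

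KCNN2 (NM_021614), a small-conductance calcium-activated channel, did not fall at the lower dose. Its levels were -1.67, -2.35 and -2.71 in untreated cells, -1.77, -2.29 and -2.26 at 8 nM, and -6.51, -6.02 and -6.72 at 80 nM. The untreated and 8 nM arrays overlapped (log2 difference 0.14, 95% interval -0.52 to 0.80), and all 80 nM arrays were below background. The gene was at least 12.4-fold lower at 80 nM than in untreated cells (adjusted p = 8.07e-06; group means -2.24 and -6.42). KCNMB4 (NM_014505), the accessory beta subunit of the large-conductance channel best known from brain, had levels of -4.08, -4.46 and -4.24 in untreated cells, -4.37, -4.60 and -4.29 at 8 nM, and -6.72, -5.95 and -6.65 at 80 nM. It was at least 3.02-fold lower at 80 nM (adjusted p = 4.85e-05; group means -4.26 and -6.44), whereas the arrays of the lower dose overlapped with the untreated ones.

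The other beta subunits of the same channel went the opposite way. KCNMB1 (NM_004137), the beta subunit of smooth muscle, had levels of -1.23, -1.37 and -1.40 in untreated cells, -1.30, -1.32 and -1.50 at 8 nM, and -0.56, -0.50 and -0.64 at 80 nM. It rose 1.70-fold at 80 nM (log2 change 0.77, SE 0.08, adjusted p = 0.000106) and every array of that dose was above all others. KCNMB3 (NM_171828) had levels of -4.16, -4.17 and -4.45, then -3.75, -4.48 and -4.01, then -3.43, -3.72 and -3.57, and rose 1.61-fold at 80 nM (log2 change 0.69, SE 0.18, adjusted p = 0.0117). Both calls of a rise were lost when arrays were scaled to the spike-in probes, where the log2 changes were 0.48 for KCNMB1 and 0.40 for KCNMB3. That of KCNMB3 was also lost with normexp (0.37) and with the values of the authors (0.49). KCNMB2 was above background on no array.

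KCNN4 (NM_002250), the intermediate-conductance calcium-activated channel of lymphocytes, red cells and many epithelia, was the potassium channel gene that rose most at 8 nM among those measured in both groups. Its levels were -5.15, -5.40 and -5.21 in untreated cells, -3.30, -3.55 and -3.58 at 8 nM, and -4.42, -4.37 and -4.35 at 80 nM. The 3 groups did not overlap, and the highest level was at the lower dose. KCNN4 rose 3.43-fold at 8 nM (log2 change 1.78, SE 0.10, adjusted p = 5.11e-05), place 89 among the rises of 21813 genes, and 1.83-fold at 80 nM (adjusted p = 0.00014). The decrease from 8 to 80 nM, tested directly, was 1.87-fold (adjusted p = 0.000127). With normexp and with the values of the authors the log2 change of KCNN4 at 8 nM was 0.75 and 1.01 and stayed called, whereas that at 80 nM, 0.23 and 0.33, was not called, and with normexp the decrease between the doses (-0.52) was not called either. KCNT2 (NM_198503), a sodium-activated channel, had levels of -5.35, -5.01 and -5.42, then -5.25, -7.01 and -5.87, then -7.83, -7.72 and -7.77, and was at least 1.55-fold lower at 80 nM than in untreated cells (adjusted p = 0.000606; group means -5.26 and -7.77). KCNN1 was not called against untreated cells (log2 change 0.57 at 80 nM, 1.49-fold), but was called higher at 80 than at 8 nM (log2 change 0.67, adjusted p = 0.027).

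**Figure D3:**
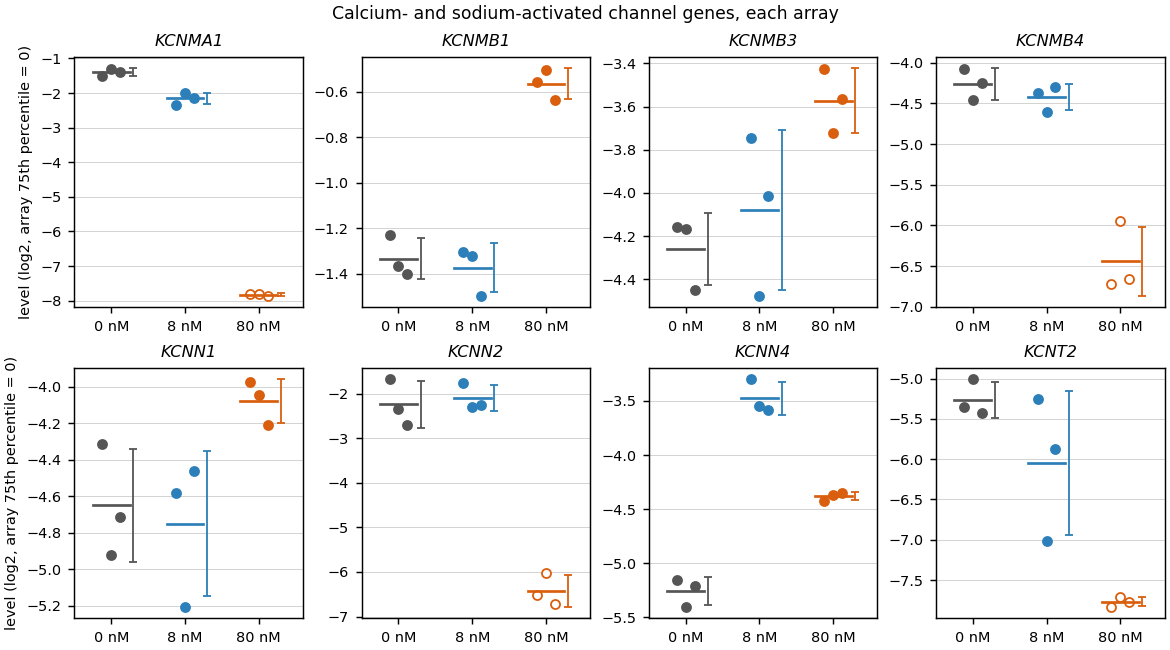
Level of the 8 tested calcium- and sodium-activated channel genes on each array (log2, with the 75th percentile of the array at 0), with the group mean as a line, the SD as a bar and open circles where no array of a group was above background; the vertical scales differ. KCNMA1, KCNMB4, KCNN2 and KCNT2 are at the background at 80 nM, KCNMB1 and KCNMB3 are highest there, and KCNN4 peaks at 8 nM between -3.58 and -3.30.

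The inward rectifiers moved in a single direction: all 6 tested KCNJ genes were called down at 80 nM and none was called at 8 nM. For 4 of them, above background on no 80 nM array, a fall was largely fixed by the filter, which they passed only through the groups in which they were brighter, so the count is not set against that over all genes. Of the 14 genes of this subfamily on the array, the other 8 were not tested. KCNJ2 and KCNJ12 were above background on all 9 arrays, so that their falls are measured on both sides. KCNJ2 (NM_000891), which encodes a strong inward rectifier that holds the resting potential of heart and muscle, had levels of -0.83, -1.0 and -0.99 in untreated cells, -0.77, -0.92 and -1.03 at 8 nM, and -2.43, -2.33 and -2.34 at 80 nM. It fell 2.68-fold at 80 nM (log2 change -1.42, SE 0.09, adjusted p = 4.78e-06), and at 8 nM the difference was 0.04 with a 95% interval from -0.17 to 0.24. KCNJ12 (NM_021012), a closely related strong rectifier, had levels of 0.82, 0.65 and 0.80, then 0.82, 1.17 and 0.86, then -0.59, -0.49 and -0.51. It fell 2.44-fold at 80 nM (log2 change -1.29, SE 0.10, adjusted p = 1.95e-05). KCNJ12 has a near-identical copy, KCNJ18, which a probe of this length may also bind, so its value is uncertain as to the gene.

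The other 4 inward rectifiers were above background on no 80 nM array. KCNJ3 (NM_002239), a subunit of the G-protein-gated channel, had levels of -4.20, -4.66 and -4.17 in untreated cells, -4.46, -5.87 and -4.10 at 8 nM, and -8.03, -8.11 and -7.63 at 80 nM, and was at least 2.93-fold lower at 80 nM (adjusted p = 0.000134; group means -4.34 and -7.92). KCNJ16 (NM_170741), a subunit that joins other rectifiers in kidney and brain, had levels of -4.27, -4.98 and -5.54, then -4.62, -4.81 and -4.96, then -8.03, -7.29 and -7.65, and was at least 1.95-fold lower (adjusted p = 0.000131; group means -4.93 and -7.66). In both genes all 80 nM arrays lay below all others. KCNJ13 (NM_002242), a rectifier of epithelia, was at least 2.09-fold lower (adjusted p = 0.0363; group means -4.83 and -6.44), with 8 nM levels of -4.84, -7.01 and -4.52 in which the replicate 2 array stood apart. KCNJ4 (NM_152868), a strong rectifier of the same kind as KCNJ2, was at least 1.70-fold lower (adjusted p = 0.000258; group means -5.13 and -6.27).

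The fitted changes of KCNJ2 and KCNJ12 at 80 nM were below 0 under each scaling, background correction and left-out array that was tried. Those of the other 4 tested inward rectifiers were so too, but that sign was largely fixed by the filter. Not each call held. With normexp 3 of the 6 were called down, with the log2 values of the authors 4, and without untreated replicate 3 or 80 nM replicate 1 it was 5. With genes above background on all 9 arrays only, KCNJ2 and KCNJ12 remained in the test and both were called.

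**Figure D4:**
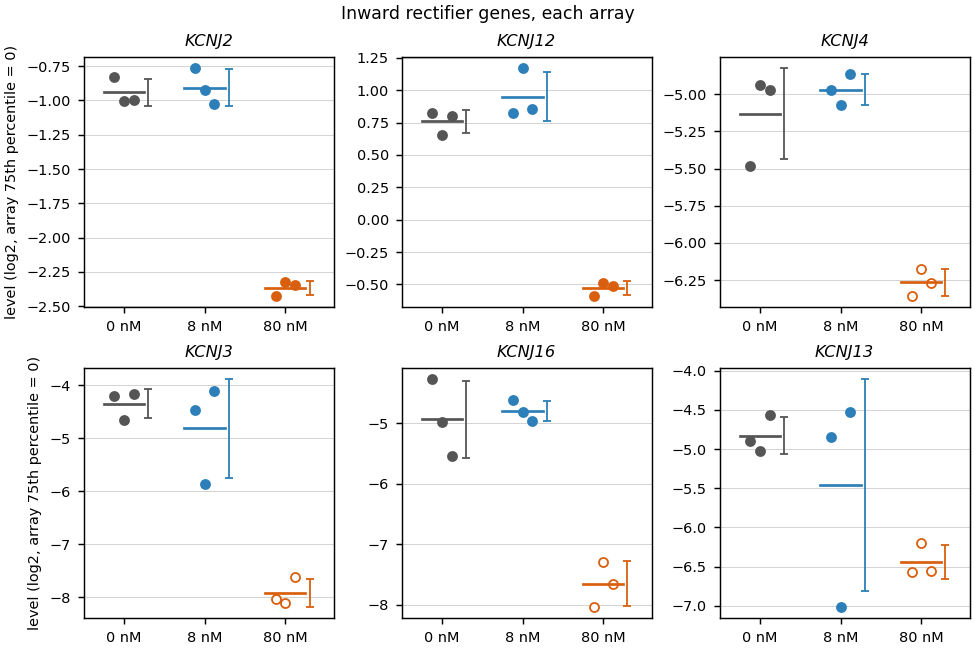
Level of the 6 tested inward rectifier genes on each array (log2, with the 75th percentile of the array at 0), with the group mean as a line, the SD as a bar and open circles where no array of a group was above background; the vertical scales differ. In KCNJ2 and KCNJ12 the 80 nM arrays are tight and measured, between -2.43 and -2.33 and between -0.59 and -0.49, while the other 4 genes are at the background at 80 nM, and in KCNJ13 the 8 nM replicate 2 array is at -7.01.

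Among the two-pore channels 1 of 6 tested genes rose at 80 nM and 2 fell, beside 18.9% called up and 16.2% called down over all genes. The filter favored the rise of KCNK6 and the fall of KCNK4, which passed it only through the groups in which they were brighter. KCNK6 (NM_004823), a weak inward rectifier of this family, rose at both doses, with levels of -5.30, -6.06 and -5.76 in untreated cells, -4.81, -4.63 and -4.82 at 8 nM, and -4.57, -4.52 and -4.33 at 80 nM. Only 1 untreated array was above background, against all arrays of both doses. The log2 change was 0.95 at the lower dose (adjusted p = 0.011) and 1.23 at the higher (adjusted p = 0.000488). With normexp these were 0.34 and 0.43, neither of them called, and with the values of the authors 0.51 and 0.63, called at 80 nM alone. The doses differed by 0.28 on the log2 scale with a 95% interval from -0.13 to 0.69. In a fit restricted to the 6 arrays of untreated cells and 8 nM, with replicate numbers as pairs, the adjusted p at 8 nM was 0.0798. KCNK5 (NM_003740), an acid-sensitive channel of kidney and other epithelia, had levels of 0.15, 0.02 and 0.07, then -0.30, -0.21 and -0.40, then -0.75, -0.63 and -0.72. The 3 groups did not overlap and lay in the order of dose. KCNK5 fell 1.71-fold at 80 nM (log2 change -0.78, SE 0.08, adjusted p = 5.67e-05), and at 8 nM its difference of -0.38 (adjusted p = 0.0146) was smaller than the 1.5-fold limit. KCNK4, a mechanically gated channel, was called down as well (log2 change -0.93, SE 0.23, adjusted p = 0.00902), with 1 of 3 arrays above background at 80 nM. KCNK7, KCNK12 and KCNK15 were not called.

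Of the 16 tested voltage-gated pores, 4 rose and 3 fell at 80 nM. KCND2, KCNH4 and KCNH6, which rose, passed the filter only through the 80 nM arrays, so a rise was largely fixed for them. The count is therefore not set against that over all genes. KCND2 (NM_012281), the pore of a rapidly inactivating A-type current of neurons and heart, had levels of -5.80, -6.14 and -5.44 in untreated cells, -6.21, -6.34 and -5.95 at 8 nM, and -1.48, -1.41 and -1.40 at 80 nM. It was above background on 1 untreated array, on no 8 nM array and on all 80 nM arrays. KCND2 rose at 80 nM against untreated cells, of which 2 arrays gave a signal below background (log2 change 4.36, SE 0.17, adjusted p = 3.9e-07). The size of this rise depended on the background correction, with a log2 change of 2.32 with normexp and of 2.84 with the values of the authors, both called. KCND2 was at least 22.1-fold higher than at 8 nM (adjusted p = 2.42e-07; group means -1.43 and -6.17). No other member rose as much. KCND1 and KCND3, the other genes of this subfamily, were above background on no array.

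KCNH2 (NM_000238), the hERG channel that repolarizes the heart, had levels of 0.07, 0.11 and 0.01 in untreated cells, -0.34, 0.07 and -0.45 at 8 nM, and -1.54, -1.63 and -1.42 at 80 nM. It fell 3.02-fold at 80 nM (log2 change -1.60, SE 0.13, adjusted p = 2.23e-05). A second KCNH2 probe, of the transcript NM_172056, changed by -0.50 at 80 nM, less than the 1.5-fold limit, so the 2 probes disagree in size. The related genes KCNH6 (NM_173092) and KCNH4 (NM_012285) were above background on all 80 nM arrays and on no other. KCNH6 was at least 2.07-fold higher at 80 nM than in untreated cells (adjusted p = 0.00158; group means -5.02 and -7.11), and KCNH4 at least 1.56-fold (adjusted p = 0.00141; group means -5.42 and -6.88). KCNH6 was also called up at 8 nM, with an adjusted p of 0.148, but no fold is given because neither group was measurable. The calls of KCNH6 and KCNH4 at 80 nM were lost with normexp (log2 changes 0.31 and 0.17) and with the values of the authors (0.49 and 0.27). KCNH3, the other tested gene of this subfamily, was not called and had its 9 arrays between 2.59 and 3.02.

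KCNS1 (NM_002251), a silent subunit that modifies other voltage-gated channels, had levels of -2.10, -2.55 and -2.53 in untreated cells, -2.09, -2.40 and -2.45 at 8 nM, and -4.28, -3.84 and -4.17 at 80 nM, and fell 3.25-fold at 80 nM (log2 change -1.70, SE 0.17, adjusted p = 6e-05). All 9 arrays were above background, and those of 80 nM lay apart from the rest. KCNC1 (NM_004976), a channel of fast-spiking neurons, fell 2.61-fold at 80 nM (log2 change -1.38, SE 0.15, adjusted p = 0.000114), with 2 of 3 arrays above background at that dose. With normexp this change was -0.54 and not called. A second probe of it changed by -1.64. KCNQ5 (NM_019842), which contributes to the M-current, rose 1.84-fold at 80 nM (log2 change 0.88, SE 0.13, adjusted p = 0.000492), from levels of -4.96, -5.32 and -5.33 to -4.20, -4.40 and -4.36. The call was lost with normexp (log2 change 0.23) and with the values of the authors (0.32).

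Among the voltage-gated pores that were not called at 80 nM were KCNA7, KCNC4, KCNG1, KCNG3, KCNG4, KCNH3 and KCNQ3. KCNG4 (NM_172347), a silent subunit, was called in the comparison of 80 with 8 nM alone, where it was 2.35-fold higher (adjusted p = 0.0116). KCNA7 (NM_031886) differed by 0.24 at 80 nM, a value that became -0.05 when arrays were scaled to the spike-in probes.

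**Figure D5:**
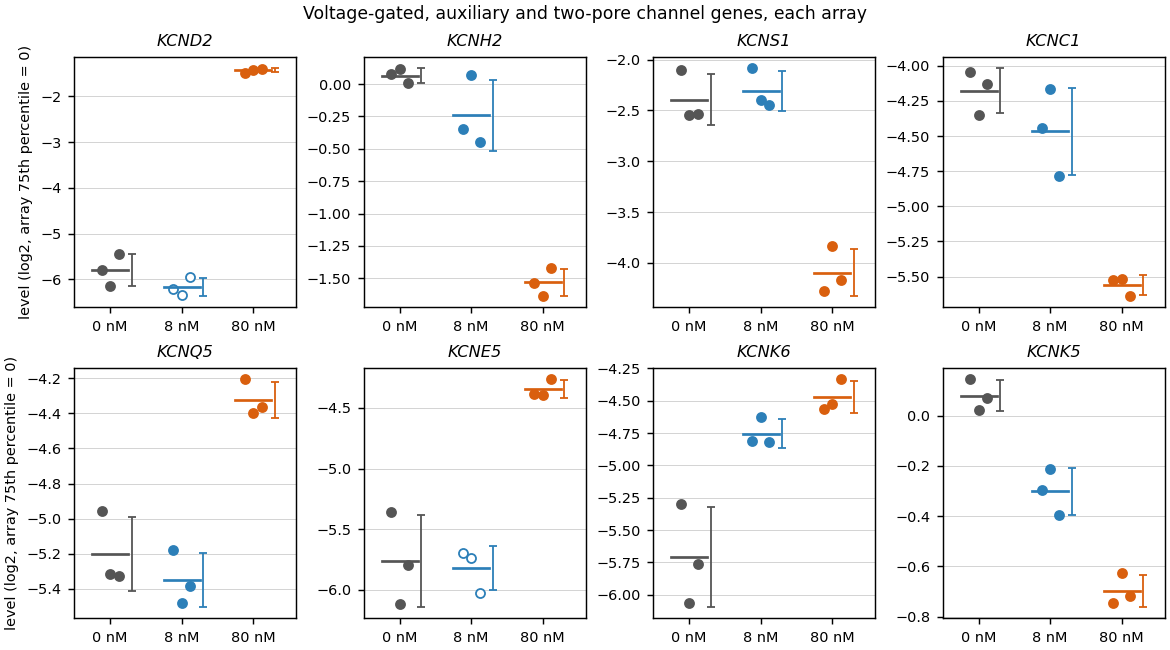
Level of 8 voltage-gated, auxiliary and two-pore channel genes on each array (log2, with the 75th percentile of the array at 0), with the group mean as a line, the SD as a bar and open circles where no array of a group was above background; the vertical scales differ. KCND2 goes from the background to levels between -1.48 and -1.40 at 80 nM, KCNH2, KCNS1 and KCNC1 are lowest at that dose, and KCNK6 and KCNK5 have both doses on the same side of untreated cells.

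Of the 5 tested auxiliary genes of voltage-gated channels, KCNE5 and KCNIP3 rose at 80 nM and KCNIP4 fell. KCNE5 passed the filter only through the 80 nM arrays and KCNIP4 only through the untreated ones, so their directions were largely fixed. The count is therefore not set against that over all genes. KCNE5 (NM_012282), a small single-span subunit, had levels of -5.36, -6.12 and -5.80 in untreated cells, -5.69, -5.74 and -6.03 at 8 nM, and -4.39, -4.39 and -4.26 at 80 nM, and rose at 80 nM (log2 change 1.41, adjusted p = 0.000255), with 1 untreated array and no 8 nM array above background. The call was lost with normexp (0.39) and with the values of the authors (0.58). KCNIP3 (NM_013434), a calcium-binding partner of KCND pores that also acts as a transcriptional repressor, had levels of -1.21, -1.33 and -1.24, then -1.35, -1.06 and -1.44, then -0.76, -0.55 and -0.52. It rose 1.57-fold at 80 nM (log2 change 0.65, SE 0.11, adjusted p = 0.00137), and the call was lost with spike-in scaling (log2 change 0.36), with normexp (0.54) and with the values of the authors (0.56). KCNIP4 (NM_001035003), another partner of KCND pores, had levels of -5.37, -5.43 and -4.99, then -5.67, -7.66 and -5.66, then -7.91, -7.30 and -7.54, and was at least 1.55-fold lower at 80 nM (adjusted p = 0.00392; group means -5.26 and -7.58). KCNAB3 and KCNRG were not called, with log2 changes of -0.42 and 0.37 at 80 nM.

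The doses were also compared directly, and 24 of the 41 genes were called between 80 and 8 nM, 9 higher and 15 lower at 80 nM, beside 33.7% of all genes (19.6% higher and 14.1% lower). Over the 21 members above background on all 9 arrays it was 3 higher and 5 lower, or 38.1% against 29%. The comparisons of 80 nM with untreated cells and with 8 nM share the 80 nM arrays, and those of either dose share the untreated arrays. Of the 4 genes called at 8 nM, KCNMA1 was called down and KCNN4, KCNK6 and KCNH6 up at both doses, and 22 genes were called at 80 nM alone, 15 down and 7 up. No gene was called in opposite directions by the doses. The main fit did not use the replicate numbers. With the number as a block in the fit to all arrays, 5 genes were called at 8 nM, 2 of them down, since KCNG4 was added. With that block and only the 6 arrays of untreated cells and 8 nM the count was 6 with 3 down, the third being KCNIP4, and 2 after adjustment. The down calls at 8 nM also rested on single arrays: they were 4 without 8 nM replicate 1 (KCNIP4 and KCNT2 among those added) and 2 without untreated replicate 2 or without 8 nM replicate 3.

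Genes that work with these channels but carry other symbols were given from fixed lists. Of 21 channel partners, 15 were tested, and at 80 nM 6 fell and 1 rose. For LRRC55 and CNTNAP2 a fall was largely fixed by the filter, which they passed only through the groups in which they were brighter. The count is therefore not set against that over all genes. The median log2 change of the 15 genes, which the filter bears on too, was -0.49 (-0.40 with genes below background at their bound) beside 0.08 over all genes. LRRC55, a gamma subunit of the large-conductance channel, and CNTNAP2, which clusters channels along axons, were above background on no 80 nM array, and were at least 3.73-fold and 1.84-fold lower than in untreated cells. LRRC38, a gamma subunit as well, was called down with only 1 untreated and no 80 nM array above background, so no fold is given (group means -5.49 and -7.36). AMIGO1, a partner of KCNB pores, fell by 1.45 on the log2 scale (adjusted p = 6e-05), NEDD4L, a ubiquitin ligase of channels, by 1.42 and the scaffold DLG1 by 1.25. LRRC26, another gamma subunit, was not called (log2 change 0.16). At 8 nM LRRC38 and ABCC8, the sulfonylurea receptor, rose (log2 changes 1.90 and 0.91), beside 4.25% called up over all genes. LRRC38 passed the filter only through the 8 nM arrays, which favored that rise.

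Among 23 genes of potassium pumps and cotransporters, 14 were tested. At 80 nM 6 rose and 1 fell, beside 18.9% called up and 16.2% called down over all genes. The regulators of the sodium pump FXYD5 and FXYD1 rose by 2.85 and 2.46 on the log2 scale, whereas the potassium-chloride cotransporter SLC12A7 fell by 1.29. The median over this list was 0.49 at 80 nM. Of 44 sodium, calcium and HCN channel genes, 22 were tested, with 3 up (SCN7A, SCN2A and SCN9A, log2 changes 1.74, 1.61 and 1.11) and 4 down at 80 nM, of which HCN4 was above background on no 80 nM array, and a median of 0.09. Called genes were thus 7 of 22 in that list, beside 35.1% of all genes and 26 of 41 potassium channel genes. All 22 were above background on every untreated array, as were 34 of the 41 potassium channel genes. The difference between the lists was not tested. Of 6 regulators known from channel promoters, REST, RCOR1 and EGR1 fell at 80 nM (log2 changes -0.89, -0.77 and -0.85), beside 16.2% called down over all genes. SP1, SP3 and SP4 were not called (-0.16, 0.00 and -0.13).

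RefSeq promoters, taken from 250 bases before to 50 bases after a start on GRCh38.p14, were matched by symbol to 30 of the 41 tested genes, with 45 starts. The letters searched were GGGCGG and, as a stricter form that contains it, GGGGCGG, each on both strands. GGGCGG was present in 14 of 25 promoters of genes called down at 80 nM (56%), in 9 of 12 of genes called up (75%) and in 6 of 8 of tested genes not called (75%), beside 44.95% of all 35116 promoters in the table. GGGGCGG was present in 12, 6 and 5 of these (48%, 50% and 62.5%), beside 30.8% of all. The G and C content had medians of 66%, 61.3% and 73.2% in the same order and 58.7% over all promoters. Several starts of a gene share sequence or a single array value, and presence of the letters does not show a bound site.

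The promoters of 3 further genes are shown to set a measured fall (KCNJ2), the largest rise (KCND2) and the gene highest at 8 nM (KCNN4) beside KCNMA1, each as the 250 bases before the start with GGGCGG or its reverse complement in capitals. KCNJ2 lies on the plus strand at chr17:70169282-70169531 with 1 such match, KCND2 on the plus strand at chr7:120272925-120273174 with 2 in direct succession, and KCNN4 on the minus strand at chr19:43780974-43781223 with 1 in the reverse orientation. Their shares of G and C were 77.6%, 63.6% and 60%.
KCNJ2: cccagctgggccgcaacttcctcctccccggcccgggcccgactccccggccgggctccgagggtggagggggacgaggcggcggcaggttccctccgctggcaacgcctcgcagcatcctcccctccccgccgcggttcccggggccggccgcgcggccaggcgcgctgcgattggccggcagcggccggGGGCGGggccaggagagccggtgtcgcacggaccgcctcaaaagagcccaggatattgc
KCND2: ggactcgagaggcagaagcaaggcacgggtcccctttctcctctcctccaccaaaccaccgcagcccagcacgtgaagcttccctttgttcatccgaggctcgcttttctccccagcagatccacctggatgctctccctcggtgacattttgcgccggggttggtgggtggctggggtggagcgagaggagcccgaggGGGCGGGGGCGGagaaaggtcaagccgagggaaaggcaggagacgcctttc
KCNN4: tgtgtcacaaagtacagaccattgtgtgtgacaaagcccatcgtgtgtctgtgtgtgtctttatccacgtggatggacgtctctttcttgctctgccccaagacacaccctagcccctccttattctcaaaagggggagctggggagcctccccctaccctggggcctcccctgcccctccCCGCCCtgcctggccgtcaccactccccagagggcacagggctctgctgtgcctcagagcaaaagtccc
GGGCGG was thus present before the start of genes that fell and of genes that rose.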

How the data were processed

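The 9 samples were compared in the 3 groups that the labels give. Per the labels and file headers, the authors scanned 1-colour arrays and extracted intensity with Feature Extraction 10.7.3.1, and the deposited processed intensity is background-corrected but not scaled between arrays. The authors also deposited log2 values per probe, used as an alternative only. Here control and outlier spots were left out, spots of a probe were averaged, and the log2 of the 75th percentile of each array was subtracted. A probe was kept if some group had it above background on each of its 3 arrays, and the brightest probe stood for a gene. Probe accessions, which differed between the slides' design versions for 2196 probes (those of slide 1 were used), were named through RefSeq on GRCh38.p14. A symbol was found for 23822 of 24440 probes of curated messenger RNAs. The processed values reach to background, and normexp draws dim values together, which bears on dim genes.

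Groups were compared with limma 3.58.1 in R 4.3.3 on all 9 arrays, after tests on simulated data. Only 3 arrays per group limit the precision. The members, lists and tests were chosen with earlier results of these data known. Named genes are KCNMA1 and the KCNMB genes, those called at 8 nM, at 80 nM the 8 called rises and 8 called falls that were largest among genes above background in both groups, called genes given as bounds, and the largest change of each remaining subfamily; others named were chosen after their values were seen. Deviations of same-numbered arrays from their group means correlated at 0.11, 0.10 and 0.16 between untreated and 8 nM. For the 80 nM arrays these correlations lay between -0.12 and 0.02. The main fit held the group alone. Replicate numbers entered only in alternatives, as a block over all 9 arrays or over the untreated and 8 nM arrays alone. Alternatives were normexp (offset 50) on the median spot signal, quantile, median or spike-in scaling, the authors' values, other filters, the mean of probes, only the groups compared, the replicate block, a threshold on adjusted p, and leaving out single arrays. A block for the slide could not be fitted, since 80 nM filled slide 2 alone. Some genes of the lists are not reported here. The paper and the labels name different labeling kits, and the lowess step in the methods has no second channel here and was not applied.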

Additional observations from a re-analysis of the deposited data

Results flagged for a closer look

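A probe outside the rule, listed by XR_110447 in one design version and as the antisense transcript KCNIP2-AS1 in the other, rose at 80 nM (log2 change 0.67, adjusted p = 0.00147), with untreated levels of -3.79, -3.87 and -3.83 and 80 nM levels of -3.27, -3.14 and -3.08; it stood out because no comparison above used it. KCNIP2 itself was above background on no array.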

How the results depend on the processing

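KCNMA1 kept its direction and its call in each comparison under each alternative that left it in the test, which the filter for signal above background on all 9 arrays did not, with log2 changes from -6.71 to -2.68 at 80 nM and from -0.98 to -0.65 at 8 nM. Counts of called genes moved more. With normexp, 2 genes were called at 8 nM (1 up), 10 at 80 nM against untreated (2 up, 8 down) and 10 between the doses (3 up, 7 down), beside 3.2%, 21.8% and 19.4% of all genes. With the authors' values these counts were 2 (1 up), 15 (3 up) and 15 (5 up), beside 4.15%, 26.2% and 24.1%. With genes above background on all 9 arrays only, whether filtered before the fit or counted after it, they were 1 (1 up, 0 down), 10 (5 up, 5 down) and 8 (3 up, 5 down). At 8 nM, 7 genes were called without a filter (3 down), 3 were down with scaling to the median, and 2 down with the replicate block, or 3 with that block and the untreated and 8 nM arrays alone, a fit chosen after seeing the data. Leaving out each array in turn gave between 1 and 4 down calls at 8 nM, between 3 and 6 calls in all there, and between 25 and 28 at 80 nM. The sign turned for KCNA7 at 80 nM with spike-in scaling (-0.047) and for KCNH6 at 8 nM with normexp (-0.00063). The cause of these changes was not tested. Scaling to the spike-in probes took the median over all genes at 80 nM from 0.08 to -0.20, and the share of down calls among called members from 61.5% to 73.1%; with normexp or the authors' values it was 80%. The block changed no other call than those given with the 8 nM results and, at 80 nM, that of KCNG4, which it added. The slide as a block was not run. Dim probes limit the rest: 21 of the 41 tested genes were above background on all 9 arrays.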

Other observations

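Other probes with KCN names that are not curated messenger RNAs were measured too. KCNQ1OT1, the long noncoding RNA antisense to KCNQ1 and known for imprinting, had levels of -1.84, -1.55 and -1.48 in untreated cells, -1.62, -0.87 and -1.32 at 8 nM, and -3.37, -3.60 and -3.57 at 80 nM, and fell at 80 nM (log2 change -1.89, adjusted p = 6.01e-05), while KCNQ1 was above background on no array. A pair of probes that the design of slide 1 lists as an intergenic RNA, and that of slide 2 under KCNA6, were above background on every array but those of 80 nM (fitted log2 changes -2.14 and -3.30, adjusted p = 0.00011 and 3.59e-06), whereas the KCNA6 probe listed so in both versions was above background on no array. KCNJ2-AS1 and KCNIP4-IT1 were above background on no array, and KCNQ1DN on 1 array, at 8 nM.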
